A study of Homo sapiens with 3 samples.

Results

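SR proteins are RNA-binding proteins with a domain rich in arginine and serine repeats, and they help the spliceosome to choose exons. CLK kinases phosphorylate that domain and so set where in the nucleus the SR proteins are and how active they are. Many genes of both families limit their own output by splicing: an extra exon with an early stop codon, often called a poison exon, sends the RNA to nonsense-mediated decay, and in CLK genes introns can be kept until a stress signal releases them. The RNA levels of 10 such genes were examined here, namely SRSF1, SRSF2, SRSF3, SRSF5, SRSF6, SRSF7, TRA2A, TRA2B, CLK1 and CLK4. They were chosen by name for their autoregulated splicing and quick response to stress, and were found by gene identifier among 25702 genes.

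The cells were Molm13, an established acute myeloid leukemia line whose FLT3 gene has an internal tandem duplication. Pyrvinium is an anthelmintic dye that was under study as a drug against leukemia. Asynchronous cultures were kept for 6 h with the vehicle DMSO, with pyrvinium at 50 nM or with pyrvinium at 100 nM. Each of the 3 conditions had 1 library, so no difference has a replicate check and no p-value is given. The libraries were built from mRNA with a kit that keeps the strand, and held 23165771 counts in DMSO, 22677038 at 50 nM and 24075123 at 100 nM. All intervals given are 95% intervals and cover counting error only, and the real spread between cultures can be wider. Fewer cells that use a gene and less of its RNA per cell cannot be told apart in such bulk libraries.

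The myeloid label was checked against marker genes. The 9 myeloid markers summed to 27938, 28960 and 32387 counts in DMSO, at 50 nM and at 100 nM, and FLT3, the most abundant of them with pyrvinium, had 6304, 9012 and 11181. The other 8 summed to 21634, 19948 and 21206, so the higher sums with pyrvinium came from FLT3. CD14, a marker of mature monocytes, had 2, 2 and 1 counts. Markers of other cells were close to 0, with 26, 19 and 14 counts over the T cell genes, nearly all from CD3D, and 7, 8 and 3 over the B cell genes. The epithelial genes had 0 counts in each library, the fibroblast genes 11, 13 and 18. The erythroid genes summed to 1, 21 and 1, with 16 of the 21 from HBB.

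All 10 genes had enough counts to be computed, from 659 for CLK4 in DMSO to 19301 for SRSF1. Levels of different genes were compared as counts scaled to library size and divided by the counted gene length in kb, called the level here (scaled counts per kb per 1000000 counts). In DMSO, SRSF3 had the highest level, 233, ahead of SRSF2 at 183. SRSF7 at 152, SRSF1 at 148 and SRSF5 at 143 came next, and each of these had a counting interval that overlapped that of its neighbour. TRA2B followed at 105, SRSF6 at 85.2 and TRA2A at 56.4, each apart from the next. CLK1 at 25.0 and CLK4 at 11.3 were the lowest of the 10. Of the 12879 genes computed, 97.9% had a lower level in DMSO than SRSF3, 88.5% than TRA2A, 74.5% than CLK1 and 55.5% than CLK4. The level depends on the length used, since some counted bases lie outside the exons of the reference transcript. Per kb of counted reference exon, with all counts kept, SRSF2 would be at 280, above SRSF3 at 237, and CLK1 at 51.3.

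Most of this order was found again with pyrvinium, but SRSF6 changed places with TRA2B beyond counting error. Its level was 113 at 50 nM and 124 at 100 nM, above TRA2B at 106 and 101, whereas it had been below TRA2B in DMSO. SRSF2 came down to 166 and 158 and lay within counting error of SRSF7 at 162 and 160, with SRSF7 the higher at 100 nM. This nearness depends on the length used. Per kb of counted reference exon, SRSF2 was at 280 and SRSF7 at 160 in DMSO. Lengths are the same in each library, so by that measure SRSF2 stays above SRSF7 at both doses.

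**Figure D1:**
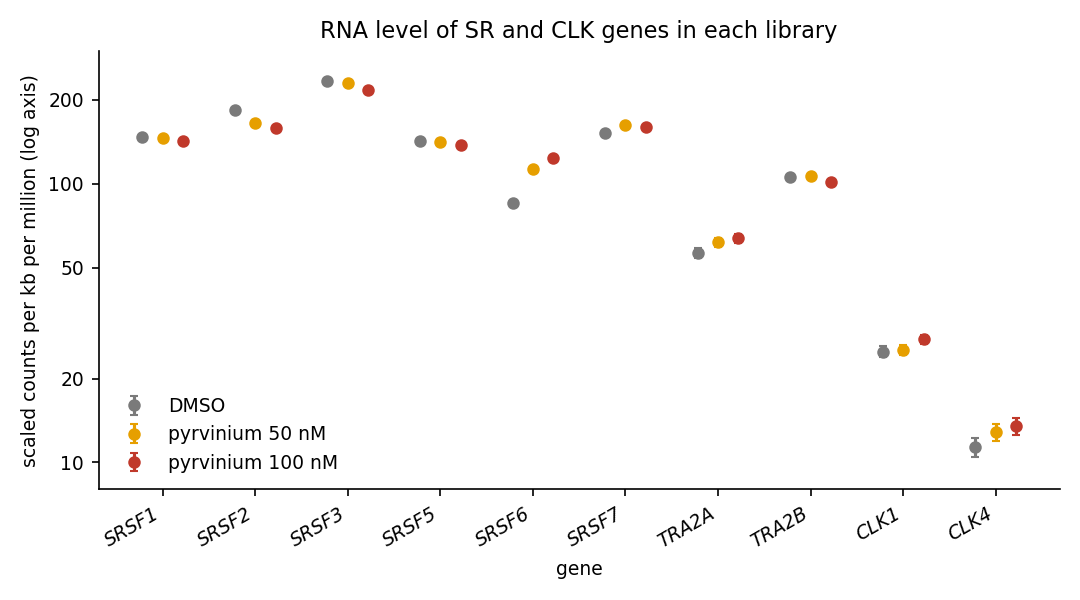
The level of each gene, in scaled counts per kb on a log axis, is drawn for DMSO (grey), 50 nM pyrvinium (orange) and 100 nM pyrvinium (red), with bars for the 95% counting interval. SRSF6 goes from 85.2 to 113 and 124, while CLK4 stays the lowest in each library.

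The study screened for genes changed by 2-fold at 100 nM, and a change was called here at 2-fold or at 1.5-fold where its interval also left out no change. At 100 nM against DMSO, 0 of the 10 genes passed 2-fold, against 2.68% of all genes, and 0 passed 1.5-fold, against 7.66%. At 50 nM against DMSO it was again 0 of 10 at 2-fold (1.48% of all genes) and 0 at 1.5-fold (3.73%). Between 100 nM and 50 nM, 0 of 10 passed 2-fold (1.09% of all genes) and 0 passed 1.5-fold (2.36%). These shares over all genes come largely from thinly counted genes. Among the 4727 genes whose counts reached 1000 in every library, to which all members but CLK4 belong, 11 passed 2-fold and 75 passed 1.5-fold at 100 nM against DMSO, 0 and 13 at 50 nM, and 1 and 6 between the doses, so 0 of 10 is not unusual for genes of this depth. Both comparisons with DMSO use the same DMSO library and are given side by side for that reason.

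The differences that were measured were small, and each gene's counts were deep enough to resolve differences far below 1.5-fold. At 100 nM against DMSO, the half-width of the interval on the log2 scale ran from 0.03 for SRSF1 to 0.15 for CLK4. The intervals of 5 genes lay above 0 (24.0% of all genes), namely SRSF6, SRSF7, TRA2A, CLK1 and CLK4, and those of 4 lay below (25.3%), namely SRSF1, SRSF2, SRSF3 and TRA2B. SRSF5 spanned 0. At 50 nM against DMSO, 4 lay above (18.6%), SRSF6, SRSF7, TRA2A and CLK4, and 1 below (18.5%), SRSF2. With a 99% interval, CLK4 spanned 0 there and 3 lay above. Between 100 nM and 50 nM, 2 lay above (12.5%), SRSF6 and CLK1, and 4 below (14.3%), SRSF1, SRSF2, SRSF3 and TRA2B. Genes with many counts pass this rule more often. Among the 4727 deeply counted genes, 29.8% lay above 0 and 38.3% below at 100 nM against DMSO. For these deeper genes the shares were 26.8% above and 26.7% below at 50 nM, and 16.4% and 26.1% between the doses. If cultures are taken to vary with a coefficient of variation of 0.1, beyond counting error, 0 of the 10 genes were called in each comparison without any fold. This call was an exact test in edgeR adjusted for all 12879 genes, a rule other than the interval rule. SRSF6 came nearest to a call of the members at 100 nM against DMSO, but was not called. Few genes of any kind were called in that setting: 176 above and 68 below of 12879 at 100 nM, 29 and 7 at 50 nM, and 2 and 14 between the doses. The median log2 ratio of the 10 genes was 0.01, 0.02 and -0.03 in these 3 comparisons, and that of all genes was -0.002, 0.0007 and 0.0009.

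**Figure D2:**
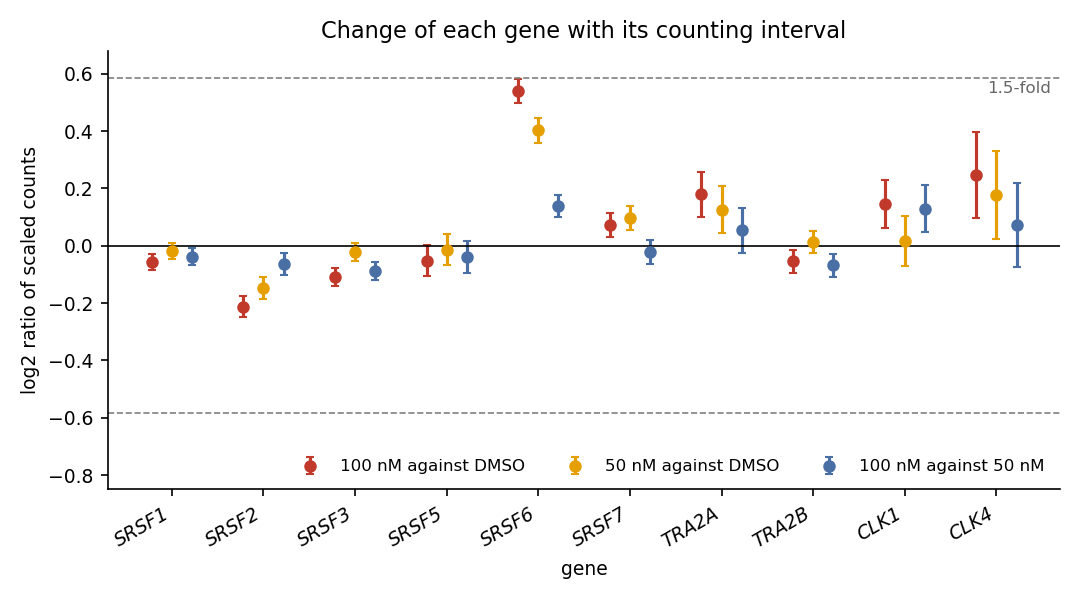
Each point is a gene's log2 ratio of scaled counts at 100 nM against DMSO (red), 50 nM against DMSO (orange) or 100 nM against 50 nM (blue), with its 95% counting interval, and the dashed lines mark 1.5-fold. SRSF6 at 0.54 and 0.40 against DMSO is the highest point of its colour and SRSF2 at -0.21 and -0.15 the lowest, and no point reaches 1.5-fold.

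SRSF6, an SR protein that binds exonic enhancers and also blocks some exons, differed most. It had 7932 counts in DMSO, 10235 at 50 nM and 11994 at 100 nM. The count thus went up with each dose in libraries of like size. The log2 ratio was 0.40 at 50 nM (interval 0.36 to 0.44, 1.32-fold) and 0.54 at 100 nM (0.50 to 0.58, 1.45-fold) against DMSO, and 0.14 (0.10 to 0.18) between the doses. Against DMSO at either dose, its interval lay above those of all 9 other members. Of the same 4727 deeply counted genes, 62 (1.31%) had a higher ratio at 100 nM and 49 (1.04%) at 50 nM, and of all 12879 genes, many with few counts, 1133 (8.80%) and 1051 (8.16%) did. A share of counts needs no scaling of libraries, and SRSF6 held 9.18% of the counts of the 10 genes in DMSO, 11.9% at 50 nM and 13.3% at 100 nM, with intervals that did not overlap. Set only against SRSF4 and SRSF5, the SR proteins closest to it in build, its share was 50.3%, 56.8% and 59.6%.

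**Figure D3:**
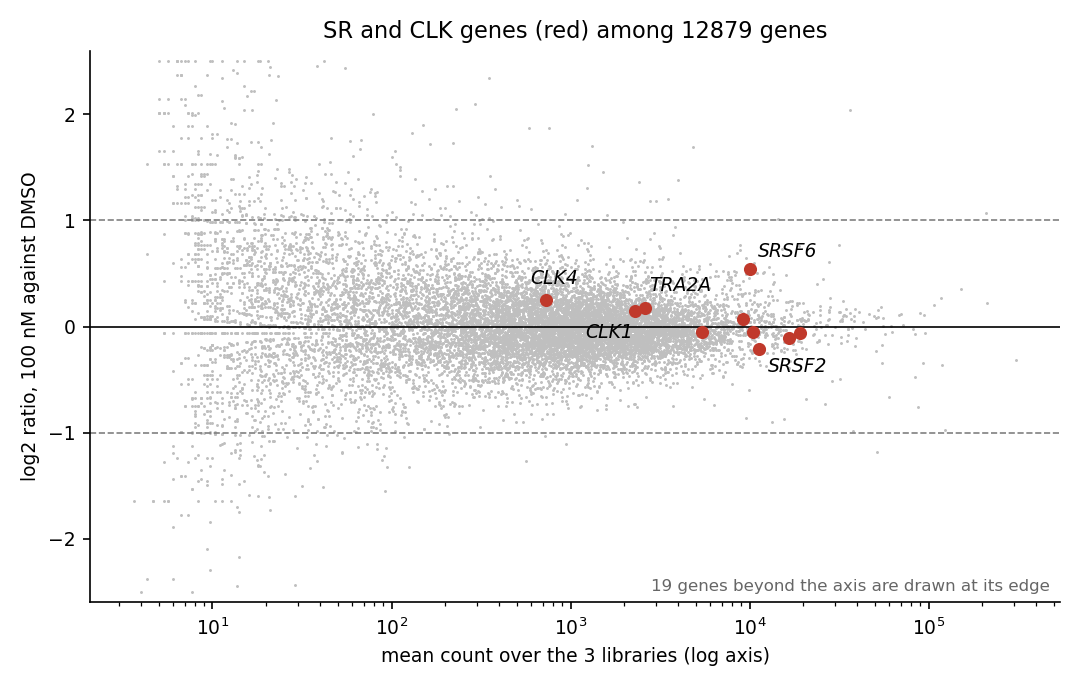
Log2 ratio at 100 nM against DMSO is plotted over the mean count of the 3 libraries (log axis) for 12879 genes in grey and the 10 SR and CLK genes in red, with dashed lines at 2-fold and with 19 genes beyond 2.5 drawn at the edge. SRSF6 at 0.54 stands at the upper rim of genes of its depth, and the other red points lie within the bulk.

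The gene model bears on what this count holds. SRSF6 (Entrez gene 6431) lies on the plus strand of chromosome 20 (chr20:42086504-42092245 in hg19), and its reads were counted over 7 intervals, while the reference transcript, the MANE Select form in GENCODE, has 6 exons. The additional interval is its poison exon, chr20:42087793-42088060, in the intron after exon 2. It is an internal exon of a transcript that GENCODE marks for nonsense-mediated decay, holds the stop codon of that transcript and shares no base with the reference exons, and all 268 of its bases were counted. A search by the same definition found 9 such exons in 6 of the 10 genes, in SRSF3, SRSF6, SRSF7, TRA2A, TRA2B and CLK4. SRSF6 was the only gene of them in which the exon was part of the count. Reads on that exon and reads on the coding exons are summed in the gene count, so the share of each form in the difference of SRSF6 was not tested. SRSF1, SRSF2, SRSF5 and CLK1 also have transcripts marked for decay (3, 2, 1 and 2), but none with an exon of this definition. Whether their counts hold other parts of such transcripts was not tested. In SRSF1, an interval of 5055 bases covers 2 of its 4 reference exons and the intron between them.

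The SRSF6 exon is shown up to its early stop (chr20:42087793-42087944, plus strand), together with those of the paralogs TRA2A (chr7:23561908-23562051, minus strand) and TRA2B (chr3:185649560-185649640, minus strand), which lie in the intron after exon 1 and had 0 counted bases. The sequences are those of GRCh37, the assembly of hg19, from 5′ to 3′, and capitals mark the annotated stop codon. The TRA2A and TRA2B exons begin with the same 9 bases.
SRSF6: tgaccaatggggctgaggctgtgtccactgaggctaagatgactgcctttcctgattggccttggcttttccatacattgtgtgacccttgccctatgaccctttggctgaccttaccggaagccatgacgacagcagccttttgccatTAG
TRA2A: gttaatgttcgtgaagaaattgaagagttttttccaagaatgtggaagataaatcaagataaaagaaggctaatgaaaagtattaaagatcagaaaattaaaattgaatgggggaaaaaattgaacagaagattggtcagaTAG
TRA2B: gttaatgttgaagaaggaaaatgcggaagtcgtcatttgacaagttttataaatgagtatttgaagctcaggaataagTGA

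SRSF2, which binds exonic enhancers and is mutated in a part of myeloid neoplasms, had the lowest ratios against DMSO. Its counts were 12253 in DMSO, 10800 at 50 nM and 11000 at 100 nM. Both pyrvinium libraries were below DMSO, and after scaling the 100 nM library was also below the 50 nM one. The log2 ratio was -0.15 at 50 nM (interval -0.19 to -0.11) and -0.21 at 100 nM (-0.25 to -0.18) against DMSO, and -0.06 (-0.10 to -0.03) between the doses, where SRSF3 and TRA2B were lower. Against DMSO at either dose, its interval lay below those of all 9 other members. Its share of the counts of the 10 genes was 14.2% in DMSO, 12.5% at 50 nM and 12.2% at 100 nM. SRSF2 (chr17:74730197-74733412, minus strand) was counted over 2882 bases, of which 34.5% lie outside the exons of the reference transcript, since an interval of 2350 bases covers 2 of its 3 exons and the intron between them. A microRNA gene, MIR636, overlaps it by 15 bases.

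SRSF1, a founding member of the family, and SRSF3, the smallest SR protein, differed little between the libraries. SRSF1 had 19301, 18607 and 19298 counts in DMSO, at 50 nM and at 100 nM, with log2 ratios of -0.02 (interval -0.05 to 0.01) and -0.06 (-0.09 to -0.03) against DMSO and -0.04 between the doses. SRSF3 had 16989, 16339 and 16387 counts, with -0.02 (-0.05 to 0.01) and -0.11 (-0.14 to -0.08) against DMSO and -0.09 (-0.12 to -0.06) between the doses. Neither was separable from DMSO at 50 nM, and both were slightly below it at 100 nM.

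SRSF5 was not separable from DMSO at either dose, and SRSF7 lay slightly above it. SRSF5, with 5457, 5280 and 5475 counts, had ratios of -0.01 (-0.07 to 0.04) and -0.05 (-0.11 to 0.00) against DMSO, and its interval spanned 0 in all 3 comparisons. Its exons overlap those of an uncharacterized gene on the opposite strand by 269 bases, and whether strand was used in counting is not stated, so reads of that stretch are uncertain. SRSF7, which also takes part in RNA export, had 8744, 9129 and 9572 counts and log2 ratios of 0.10 (0.05 to 0.14) and 0.07 (0.03 to 0.12) against DMSO. Its share of the counts of SRSF7 and its close relative SRSF3 was 34.0% in DMSO, 35.8% at 50 nM and 36.9% at 100 nM.

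TRA2A and TRA2B, SR-like proteins that favour exons rich in GAA repeats, differed from each other. TRA2A had 2406, 2564 and 2834 counts and log2 ratios of 0.13 (0.05 to 0.21) at 50 nM and 0.18 (0.10 to 0.26) at 100 nM against DMSO. TRA2B had 10471, 10322 and 10488 counts and ratios of 0.01 (-0.03 to 0.05) and -0.05 (-0.09 to -0.02). Between the doses TRA2A was at 0.05 (-0.02 to 0.13) and TRA2B at -0.07 (-0.11 to -0.03). The intervals of the paralogs did not overlap at 100 nM against DMSO. TRA2A made up 18.7% of the counts of the pair in DMSO, with an interval of 18.0 to 19.4, and 19.9% (19.2 to 20.6) and 21.3% (20.6 to 22.0) with the lower and the higher dose.

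CLK1 and CLK4, nuclear kinases of SR proteins whose own RNAs are spliced in response to stress, were both slightly higher at 100 nM. CLK1 had 2198 counts in DMSO, 2172 at 50 nM and 2531 at 100 nM. Its log2 ratio was 0.02 (-0.07 to 0.10) at 50 nM and 0.15 (0.06 to 0.23) at 100 nM against DMSO, and 0.13 (0.05 to 0.21) between the doses. Only the 100 nM library of CLK1 stood apart from the others. CLK4 had 659, 727 and 814 counts and ratios of 0.18 (0.02 to 0.33) and 0.25 (0.10 to 0.40) against DMSO and 0.07 (-0.07 to 0.22) between the doses. The fold of CLK4 at 100 nM was 1.19, with the widest interval of the members, 1.07 to 1.32. The share of CLK1 in the counts of CLK1 and CLK4 was 76.9%, 74.9% and 75.7%, with overlapping intervals.

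The CLK1 count was taken over more than the exons of its mature mRNA. CLK1 (chr2:201717732-201729467, minus strand) was counted over 3794 bases, and 51.3% of them lie outside the exons of the reference transcript, the largest such share of the 10 genes. An interval of 1787 bases takes in 3 reference exons with the introns between them. In CLK4 (chr5:178029665-178054054, minus strand) the share was 0.12%, so the counts of these kinases do not cover matching parts of their genes, and spliced and intron-holding CLK1 RNA cannot be told apart in them. How many CLK1 reads fell in the introns was not tested.

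The other kinases of this system had ratios on either side of 0. CLK2, with 942, 893 and 1008 counts, had ratios of -0.04 (-0.18 to 0.09) and 0.04 (-0.09 to 0.17) against DMSO at 50 nM and 100 nM. CLK3, with 972, 833 and 830 counts, was below DMSO at either dose, at -0.19 (-0.32 to -0.05) and -0.28 (-0.42 to -0.15). CLK1 and CLK4 together made up 59.9% of the counts of the 4 CLK genes in DMSO, with an interval of 58.5 to 61.3, and 62.7% (61.3 to 64.1) and 64.5% (63.2 to 65.8) with the lower and the higher dose. SRPK1, the main cytoplasmic SR protein kinase, had 9193, 7912 and 7710 counts and a ratio of -0.18 at 50 nM. At 100 nM its ratio of -0.31 (-0.35 to -0.27) was the lowest of the 9 genes in the list of other kinases and importins. PRPF4B, a kinase of the spliceosome, had the highest ratio at 100 nM among those with at least 100 counts in each library, 0.15 (0.10 to 0.19). Of the 9, 1 (11.1%) lay above 0 and 3 (33.3%) below at 100 nM, and the list median was 0.003 (-0.05 by summed counts). These shares were 24.0% and 25.3% over all genes, and 29.8% and 38.3% over the 4727 deeply counted genes.

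Of the remaining SR protein genes, SRSF9 lay below DMSO at either dose. SRSF9, with 4333, 3990 and 3824 counts, was at -0.08 (-0.15 to -0.02) at 50 nM and -0.24 (-0.30 to -0.17) at 100 nM. SRSF4 was at 0.11 and 0.10 (0.02 to 0.18), SRSF10 at 0.00 and 0.03 (-0.04 to 0.11), and SRSF11 at 0.02 and 0.10 (0.05 to 0.15). SRSF8 had 42, 44 and 34 counts and a ratio of -0.36 (-1.06 to 0.33) at 100 nM, too imprecise to give a direction, and SRSF12 had 0 counts in each library, which allows up to 3. The list median at 100 nM was 0.03 over the 5 genes computed, and their summed counts gave -0.0005.

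Lists of other splicing genes give the setting for these values, and none of their genes passed 1.5-fold in any of the 3 comparisons. Few genes of such depth did, with 75 of 4727 at 100 nM, 13 at 50 nM and 6 between the doses. Most of these genes are deeply counted, so their counts stand beside those of the 4727 deep genes, 29.8% above 0 and 38.3% below at 100 nM with a median of -0.02, and 26.8% and 26.7% at 50 nM with a median of -0.003. Genes listed as RS-domain coactivators, some of which bridge SR proteins and the spliceosome, were mostly above DMSO. At 100 nM, 16 of 23 (69.6%) lay above 0 and 1 below, with a median of 0.13. At 50 nM, 13 lay above and 1 below, with a median of 0.08. SRRM2, a scaffold of nuclear speckles, had the highest ratio of them at 0.45 (0.42 to 0.47), from 21757 counts in DMSO to 24846 and 30911. U2SURP had the lowest at -0.07 (-0.11 to -0.03). By its summed counts, to which SRRM2 brings the most, this list was at 0.21.

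The hnRNP proteins, which often oppose SR proteins at exons, were more often below DMSO than above it. Of 26 genes, 5 (19.2%) lay above 0 and 15 (57.7%) below at 100 nM, with a median of -0.07, and 6 above and 13 below at 50 nM, with a median of -0.02. PTBP1, a repressor of exon inclusion, was highest at 0.23 (0.20 to 0.26), and HNRNPH2 was lowest at -0.30 (-0.38 to -0.21). Core spliceosome genes had 6 of 40 above 0 and 22 below at 100 nM, a median of -0.07, and at 50 nM 6 above and 12 below, a median of -0.03. SF3B4, a subunit of the complex that holds the branch point, was lowest with 624, 511 and 442 counts and a ratio of -0.55 (-0.73 to -0.38), and SNRPA, of the U1 particle, was highest at 0.13 (0.06 to 0.20).

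Genes of nonsense-mediated decay and the exon junction complex, the machinery that removes poison-exon RNAs, had shares near those of the deep genes at 100 nM. Of 15 genes, 4 (26.7%) lay above 0 and 6 (40.0%) below at 100 nM, with a median of -0.003, and 4 above and 3 below at 50 nM, with a median of -0.04. By summed counts this list was at 0.02 at either dose. SMG9, a partner of the SMG1 kinase, was at 0.42 (0.33 to 0.50), and UPF3B, which links the junction complex to decay, was at -0.28 (-0.42 to -0.15). Among 13 other splicing regulators with autoregulated or temperature-responsive RNAs, 7 (53.8%) lay above 0 and 3 (23.1%) below at 100 nM, with a median of 0.12, and 8 above and 3 below at 50 nM, with a median of 0.11. The cold-inducible RNA-binding protein CIRBP had the highest ratio, 0.57 (0.51 to 0.63), from 4088 counts in DMSO to 5168 and 6311, and TARDBP the lowest, -0.16 (-0.20 to -0.11).

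**Figure D4:**
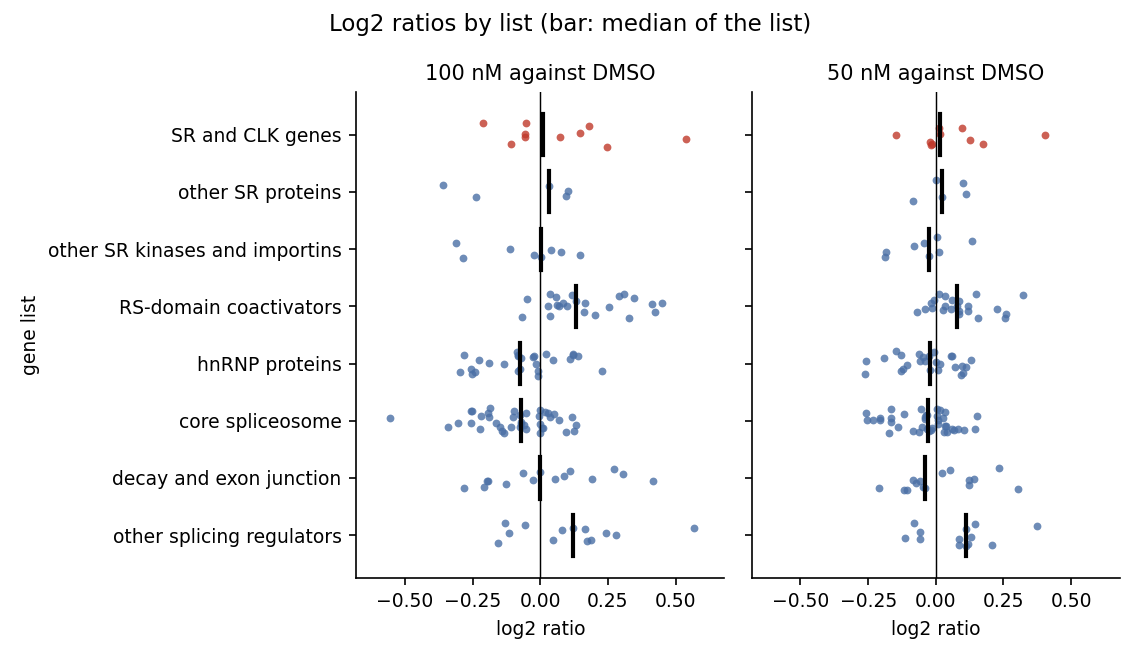
Points are genes' log2 ratios at 100 nM (left) and 50 nM (right) against DMSO, with the 10 SR and CLK genes in red, other lists in blue and black bars for list medians; SRPK3, with 10 counts or fewer, is not drawn. RS-domain coactivators lie mostly above 0 (median 0.13 at 100 nM) and hnRNP and core spliceosome genes mostly below (median -0.07 each).

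The genes most like SRSF6 across the 3 libraries were sought among 4718 deeply counted genes outside the members, by the distance between pairs of log2 ratios at 50 nM and 100 nM against DMSO. The nearest was MTHFD1L, a mitochondrial enzyme of folate metabolism, at 0.40 and 0.54 and a distance of 0.0029. CNOT6L, a subunit of the deadenylase complex, was at 0.41 and 0.53, and AARS1, the alanyl-tRNA synthetase, at 0.40 and 0.51. ZNF521 was at 0.40 and 0.57 and IMPACT at 0.37 and 0.53. The farthest of the 5, IMPACT, was at a distance of 0.032. Counting intervals at 100 nM, 0.50 to 0.58 for SRSF6 and 0.43 to 0.62 for IMPACT, are wider than these distances. The order of the 5 is therefore within counting error, and the likeness rests on only 3 libraries.

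The 250 bases before the gene start were given for 8 of the 10 genes in RefSeq promoters on GRCh38.p14, and were searched on both strands for 4 motifs of stress response and common promoter elements. The heat shock element core GAANNTTC, found in 5.78% of 35116 promoters, the C/EBP-ATF element core TGATGNAA (3.14%) and the cyclic AMP response element TGACGTCA (1.65%) matched 0 of the 8. The E-box CACGTG, found in 6.34% of promoters, matched CLK4.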

How the data were processed

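Counts from 3 RNA-seq libraries of Molm13 cells were analysed, in groups given by the labels. The authors aligned reads to hg19 using Rsubread and deposited unnormalized counts for each gene, with the intervals counted and their summed length. The strand setting is not given in the sources used here. EBSeq fold changes and probabilities that the authors also deposited were not used. Scaling was by TMM in edgeR 4.0.16 (R 4.3.3) over all genes. The 12879 genes computed had 10 counts or more in some library. Ratios had 0.5 counts added, with 95% Clopper-Pearson intervals of the count ratio (scipy 1.17.1), and levels had exact Poisson intervals. The ratio intervals were tried on simulated counts with counting error only, which does not test spread between cultures or scaling. The members and the 7 gene lists were chosen with earlier results of these data known. Named were all members, CLK2, CLK3, other SRSF genes, the highest and lowest gene of each other list at 100 nM that had 100 counts or more in all libraries, and the 5 genes nearest to the most changed member. Gene models came from GENCODE on GRCh37, in which the counted intervals of all 24 chromosomes lie. GENCODE names 9 pseudogenes after members, and reads shared with them are uncertain. Alternatives were other scalings (DESeq2 1.42.0 among them), added counts, filters, folds and interval levels. Another was an exact test in edgeR at preset coefficients of variation, adjusted over all genes computed. Its use without a fold was chosen after the data were seen.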

Additional observations from a re-analysis of the deposited data

How the results depend on the processing

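Of 373 values computed under an alternative, 350 were judged unchanged and 23 moved, among them 8 of 10 levels and 14 of 102 member counts. Member values under the other count filters could not change, since these filters kept the scaling and all members passed them. Unchanged meant staying within the counting interval for ratios and levels of members, and within 1.5 times for counts. Medians of gene lists have no such interval, so this label says less for them. It was given to 62 of 63 list medians, although 4 changed sign. Other scalings moved no member's log2 ratio by more than 0.0050, and 90 of 90 such ratios stayed within their interval. A scaling moves all members alike within a comparison, so these 90 are not separate checks. By summed counts 4 list medians changed sign: other SR proteins (-0.0005) and other kinases and importins (-0.05) at 100 nM, and nonsense-mediated decay at 100 nM and 50 nM (0.02 each). RS-domain coactivators gave 0.21 at 100 nM against a median of 0.13. With the call lowered to 0.32 on the log2 scale, 1 member, SRSF6, passed at 100 nM and 1 at 50 nM against DMSO. At a preset coefficient of variation of 0.1 or 0.2 and no fold, 0 members were called in either direction in all 3 comparisons. Of all genes, 176 above and 68 below, 29 and 7, and 2 and 14 were called at 0.1, and 12 and 0, 0 and 0, and 0 and 4 at 0.2. Over all genes, 345, 191 and 140 passed 2-fold at 100 nM, at 50 nM and between the doses. These were 77, 20 and 5 with at least 50 counts in each library, 138, 27 and 15 at a coefficient of 0.1, and 12, 0 and 4 at 0.2, or 986, 481 and 304 at 1.5-fold and 2620, 1356 and 679 at the lowest fold. Per kb of counted reference exon, chosen after the data were seen, levels in DMSO were 156 for SRSF1, 280 for SRSF2, 237 for SRSF3, 157 for SRSF5, 92.1 for SRSF6, 160 for SRSF7, 108 for TRA2B and 51.3 for CLK1. Among the members, depth limits CLK4 most.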
